A study of Homo sapiens with 4 samples.

Results

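The data described here are poly(A) site read counts of 6 cytoskeletal genes: the alpha-tubulin genes TUBA1B and TUBA1C, the beta-tubulin gene TUBB4B, the cytoplasmic actin genes ACTB and ACTG1, and TMSB10, which encodes thymosin beta-10. The deposited table names no genes, so each gene was taken as the regions of its strand that lie wholly inside a fixed hg19 window around it. The windows held 17 of the 31081 regions in the table, with 210040 of its 17073064 reads (1.23%). All 4 libraries come from a single group, DICER(ex5) cells, a line with a hypomorphic (reduced-function) DICER that was derived from the human colon cancer line HCT116 and grown without any treatment named in the labels. Dicer is the ribonuclease that releases microRNAs from their precursors. Every library carries the DICER change and no parental HCT116 library is in the series, so the comparisons are between genes, between poly(A) regions of a gene and between libraries. Poly(A) site sequencing reads the junction of a transcript with its poly(A) tail, and a read is therefore taken as 1 transcript end whatever the transcript's length. Reads primed on internal A-rich stretches and duplicate reads would depart from this, and neither was checked. Epithelial markers of the line were not checked here, because the table holds no gene names.

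Microtubules are built from dimers of an alpha- and a beta-tubulin, and actin filaments from globular actin monomers. Most animal cells express several isotypes of each, and TUBA1B and TUBA1C are broadly expressed alpha-tubulin isotypes. Cytoplasmic beta-actin (ACTB) and gamma-actin (ACTG1) are nearly identical proteins encoded by separate genes, while beta-thymosins bind actin monomers and hold them out of filaments. Cells adjust tubulin mRNA to the amount of free dimer, and actin genes are classic targets of serum response factor, which binds the CArG box.

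Library 1 held 5211279 reads, library 2 held 2163977, library 3 held 5713530 and library 4 held 3984278. The libraries did not vary evenly. Of 3735 loci with at least 1000 reads (a locus joins regions of a strand that lie within 5 kb of the next), 1.15% differed over 1.5-fold in CPM (reads per 1000000 reads of the library) in library 1 over library 2, and 0.107% in library 3 over library 4. The share was 10.6% for library 1 over library 3, 9.45% for library 1 over library 4, 18.6% for library 2 over library 3 and 16.7% for library 2 over library 4. No label gives a batch or a day. Cell confluence is given only as a range, 75% to 95%, which is the same for all 4 libraries. Values are therefore given for each library, and an SD over 4 libraries includes this division.

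The 3' ends of the 6 genes lay mostly in 1 region each. The strongest region of each window held together 209371 of the 210040 reads (99.7%), and the other 11 regions shared the rest. TUBB4B ended in a single region (chromosome 9, plus strand, 140138124 to 140138215, hg19, as are all positions of regions). TUBA1B ended at 49521556 to 49521604 on the minus strand of chromosome 12, with 99.96% ± 0.0427 of its reads (SD, n = 4). TMSB10 ended at 85133777 to 85133830 on the plus strand of chromosome 2 with 99.8% ± 0.0320, and ACTB at 5566768 to 5566781 on the minus strand of chromosome 7 with 99.2% ± 0.557 (SD, n = 4). TUBA1C ended at 49667081 to 49667148 on the plus strand of chromosome 12 with 98.6% ± 0.962, and ACTG1 at 79476940 to 79477005 on the minus strand of chromosome 17 with 96.7% ± 2.97 (SD, n = 4). No gene's weaker region reached 5% of its reads. At the 2565 loci that had over 1 region and 1000 reads or more, a median of 83.8% of the reads lay in the strongest region, and at 25.2% of these loci it held over 95%.

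The best-read region was also the most 3' in 4 of the 5 genes with several regions, against 45.8% of the 2565 loci. The exception was TUBA1C, whose weaker region lay 1242 bases downstream of the strongest one (49668372 to 49668390). The strongest regions were 14 to 92 bases wide. That of TUBB4B was the widest at 92 bases, and 95.7% of the 3453 regions with at least 1000 reads were narrower. That of ACTB was the narrowest at 14 bases, and only 0.434% of those regions were narrower. No other region of the same strand lay within 17351 bases of any of the 6 genes, so none of their reads could be joined to a neighbouring gene at a joining distance of 5 kb.

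The level of a gene is the sum of its regions in CPM. TUBA1B gave 5236, 6023, 5615 and 5401 CPM in libraries 1 to 4 (mean 5569 ± 340, SD, n = 4), and was the second strongest locus of 17963 in every library. Its coefficient of variation over the libraries was 6.11%, below the median of 10.7% over the 3735 well-read loci, of which 22.6% varied less. TMSB10 gave 5142, 5763, 3762 and 3719 CPM (mean 4596 ± 1021, SD, n = 4) and ranked 3, 3, 7 and 7. Its values in libraries 1 and 2 lay above those in libraries 3 and 4.

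ACTG1 gave 1827, 2422, 303 and 354 CPM in libraries 1 to 4 (mean 1227 ± 1066, SD, n = 4). Gamma-actin transcript ends were thus high in libraries 1 and 2 and low in libraries 3 and 4, and the gene's rank among all loci was 31, 19, 589 and 481. ACTB, its near-identical partner, gave 299, 324, 228 and 279 CPM (mean 283 ± 41.0, SD, n = 4). The ACTB values spread 1.42-fold from the lowest to the highest library and the ACTG1 values 8.005-fold.

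TUBA1C gave 378, 311, 1083 and 1038 CPM (mean 703 ± 414, SD, n = 4). It was low in libraries 1 and 2 and high in libraries 3 and 4, the reverse of ACTG1. TUBB4B gave 80.0, 44.4, 477 and 442 CPM (mean 261 ± 230, SD, n = 4), from 417, 96, 2723 and 1760 reads. Its values had the same order as those of TUBA1C, and its rank among all loci moved between 4558 in library 2 and 312 in library 3. The coefficients of variation of TUBB4B, ACTG1 and TUBA1C were 88.3%, 86.9% and 59.0%, and 99.7%, 99.6% and 98.2% of the well-read loci varied less.

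**Figure D1:**
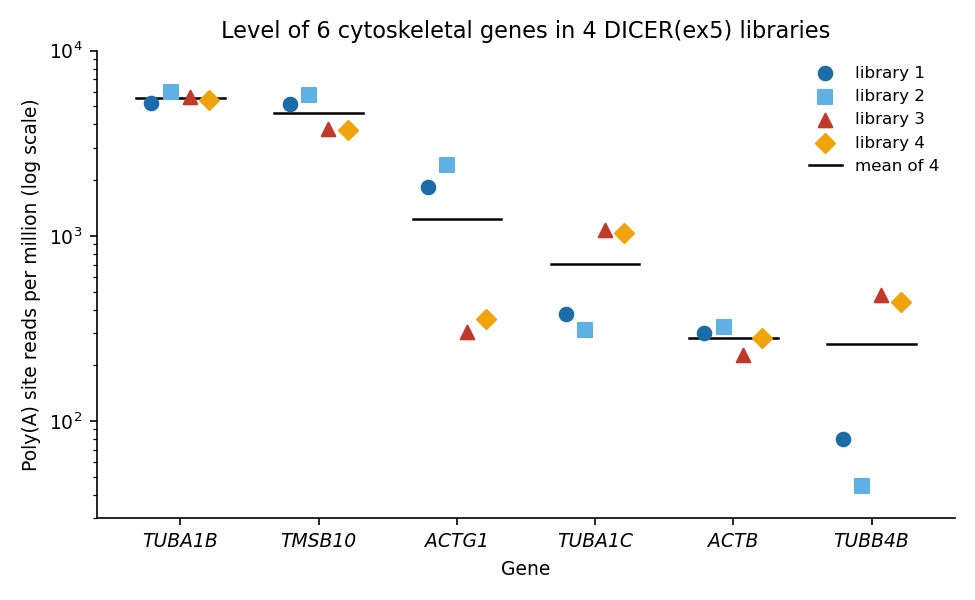
Poly(A) site reads in CPM (log scale) of each gene in each of the 4 libraries, with the mean of 4 as a line. TUBA1B stays between 5236 and 6023, while ACTG1 is between 303 and 2422 and TUBB4B between 44.4 and 477, with libraries 1 and 2 on one side and libraries 3 and 4 on the other.

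By their means the genes ranked TUBA1B, TMSB10, ACTG1, TUBA1C, ACTB, TUBB4B. Each of the 5 neighbouring pairs was compared by the log2 ratio of CPM within each library, with an exact sign-flip permutation test over the 4 libraries (two-sided). Such a test cannot give a p below 0.125, so no pair could pass 0.05. TUBA1B exceeded TMSB10 in 4 of 4 libraries (mean log2 ratio 0.30 ± 0.30, SD, n = 4; exact permutation p = 0.125, adjusted over the 5 pairs 0.312), but by only 1.02- and 1.05-fold in libraries 1 and 2, against 1.49- and 1.45-fold in libraries 3 and 4. TMSB10 exceeded ACTG1 in 4 of 4 libraries (mean log2 ratio 2.44 ± 1.25, SD, n = 4; exact permutation p = 0.125).

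The lower part of the order did not hold from library to library. ACTG1 exceeded TUBA1C in libraries 1 and 2 and lay below it in libraries 3 and 4, and the mean log2 ratio of 0.46 was smaller than its SD of 2.51 (n = 4; exact permutation p = 0.75). That mean ratio was -0.14 without library 1 and -0.37 without library 2, so its sign turned. By mean CPM, ACTG1 stayed above TUBA1C without library 1 (1026 and 811 CPM). Without library 2 they were nearly level (828 and 833 CPM). TUBA1C exceeded ACTB in 3 of 4 libraries (mean log2 ratio 1.11 ± 1.14, SD, n = 4; exact permutation p = 0.25). ACTB exceeded TUBB4B in libraries 1 and 2 only (mean log2 ratio 0.76 ± 1.92, SD, n = 4; exact permutation p = 0.5), and without library 2 the mean was 0.06. Their mean CPM changed places without library 1 (ACTB 277 and TUBB4B 321 CPM) and without library 2 (269 and 333 CPM).

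Ratios within a library do not depend on how libraries are scaled. The ratio of ACTG1 to ACTB was 6.10, 7.48, 1.33 and 1.27 in libraries 1 to 4. ACTB made up 14.1%, 11.8%, 42.9% and 44.1% of the reads of the 2 actin genes in libraries 1 to 4. The summed actin level was 2127, 2746, 530 and 633 CPM, so it followed ACTG1.

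The ratio of TUBA1B to TUBA1C was 13.8, 19.3, 5.19 and 5.20. TUBA1C made up 6.74%, 4.92%, 16.2% and 16.1% of the reads of the 2 alpha-tubulin genes in the same order of libraries. The sum of both genes was 5615, 6334, 6698 and 6439 CPM, a 1.19-fold spread from lowest to highest, against 1.15-fold for TUBA1B alone. TUBB4B lay below TUBA1C in every library, and the ratio of TUBA1C to TUBB4B was 4.73, 7.02, 2.27 and 2.35. Both genes were higher in libraries 3 and 4, TUBB4B by more than TUBA1C. Other beta-tubulin genes were not identified here, so no ratio of alpha- to beta-tubulin can be given. All 6 genes together gave 12963, 14887, 11467 and 11232 CPM.

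**Figure D2:**
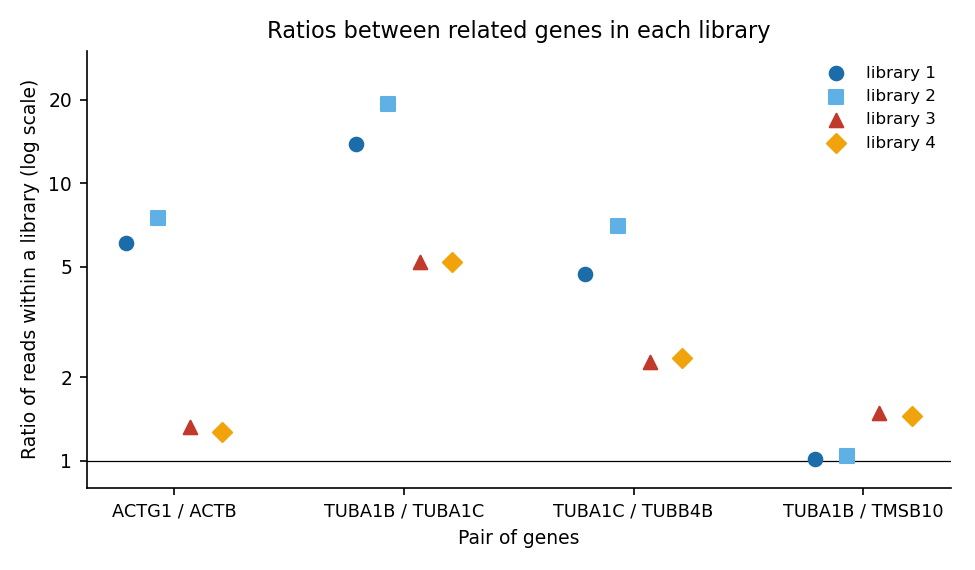
Ratio of reads (log scale) between 4 pairs of the genes within each library; points are single libraries and the line marks a ratio of 1. ACTG1 over ACTB is above 6 in libraries 1 and 2 and below 1.5 in libraries 3 and 4, and TUBA1B over TUBA1C divides the libraries in the same way.

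The size of these differences was set against all 3735 loci with at least 1000 reads. With 1 library on each side there is no test, and intervals are 95% exact intervals that cover counting error only. Library 1 was 6.04-fold (5.74 to 6.36) above library 3 for ACTG1 and 5.17-fold (4.89 to 5.47) above library 4. Library 2 was 8.005-fold (7.58 to 8.46) above library 3 and 6.85-fold (6.46 to 7.27) above library 4. In each of these comparisons 4 to 6 of the 3735 loci lay further in that direction.

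TUBB4B stood as far out on the other side. Library 1 was 5.96-fold (5.37 to 6.62) below library 3 and 5.52-fold (4.96 to 6.16) below library 4. Library 2 was 10.7-fold (8.76 to 13.3) below library 3 and 9.96-fold (8.11 to 12.4) below library 4, and 4 to 9 loci lay further out. TUBA1C was 2.74- to 3.48-fold lower in libraries 1 and 2 than in libraries 3 and 4 over the 4 comparisons, with 38 to 51 loci further out.

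The count of genes past 1.5-fold followed. It was 3 of the 6 for library 1 over library 3 (ACTG1, TUBA1C and TUBB4B), against the 10.6% of all loci, and the same 3 for library 1 over library 4, against 9.45%. It was 4 for library 2 over library 3 and for library 2 over library 4, with TMSB10 added at 1.53- and 1.55-fold, against 18.6% and 16.7%. TMSB10 was not past 1.5-fold in either under other scalings, with log2 ratios of 0.52 and 0.54 under the trimmed mean of M-values (TMM) and 0.54 and 0.55 under DESeq2 size factors, which left 3 genes. Between libraries 1 and 2 only TUBB4B was past it, at 1.80-fold (1.44 to 2.28) against 1.15% of loci, and between libraries 3 and 4 none was, against 0.107%.

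TUBA1B and ACTB were past 1.5-fold in no comparison. With TMM as scaling, the median of all loci in library 1 over library 3 moved by -0.12 on the log2 scale, and ACTB in library 1 over library 4 went from 0.10 to -0.02, so its direction there depends on the scaling. In bulk RNA, fewer cells that express a gene and less of its RNA per cell cannot be told apart. The sources used here do not give how reads that match several places were counted. RefSeq lists 21 pseudogenes named after ACTG1, 14 after ACTB, 8 after TUBB4B and 2 after TMSB10, so the levels of these genes carry that uncertainty. It lists 0 named after TUBA1B or TUBA1C, but a count by name cannot show that their reads match only 1 place.

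**Figure D3:**
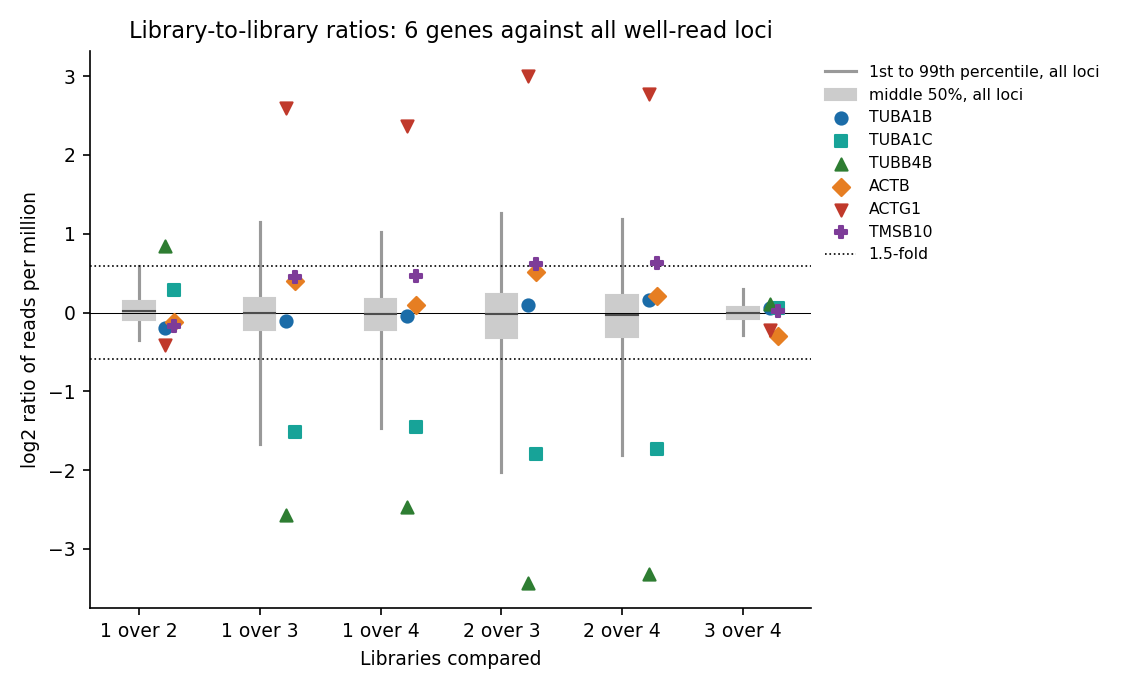
The log2 ratio of CPM for the 6 genes in each pair of libraries, beside the middle 50% (grey boxes, line at the median) and the 1st to 99th percentile (grey lines) of 3735 loci with at least 1000 reads. ACTG1 lies above 2 and TUBB4B below -2 in the 4 comparisons of library 1 or 2 with library 3 or 4, outside the grey lines.

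Because ACTG1, TUBB4B and TUBA1C divided the libraries, their promoters are shown for reference, as the 250 bases before the start annotated by RefSeq on GRCh38.p14 (5 of the 6 genes had an entry, and for TUBA1C the most 3' of 3 starts was taken). They lie at chr17:81512800-81513049 (minus strand), chr9:137241037-137241286 (plus strand) and chr12:49264832-49265081 (plus strand). Capitals mark matches, on either strand, to CCAAT, to TATAA and to the CArG box.
ACTG1: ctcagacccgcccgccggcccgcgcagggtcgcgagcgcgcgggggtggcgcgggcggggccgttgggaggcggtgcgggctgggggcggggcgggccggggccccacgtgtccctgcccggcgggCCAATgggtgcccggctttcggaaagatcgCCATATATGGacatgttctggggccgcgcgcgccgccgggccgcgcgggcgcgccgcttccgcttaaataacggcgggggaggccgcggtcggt
TUBB4B: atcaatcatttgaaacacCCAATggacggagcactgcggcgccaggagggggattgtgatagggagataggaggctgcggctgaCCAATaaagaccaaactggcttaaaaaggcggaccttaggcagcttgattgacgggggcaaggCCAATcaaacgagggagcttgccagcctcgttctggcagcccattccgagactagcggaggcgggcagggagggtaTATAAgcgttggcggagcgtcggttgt
TUBA1C: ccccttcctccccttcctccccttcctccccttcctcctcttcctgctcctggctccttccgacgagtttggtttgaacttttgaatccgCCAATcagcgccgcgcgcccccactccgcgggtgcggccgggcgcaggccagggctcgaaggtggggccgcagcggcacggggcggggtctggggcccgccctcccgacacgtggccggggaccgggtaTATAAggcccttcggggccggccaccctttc

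The ACTG1 promoter held 1 CArG box, 94 bases before the start, and 1 CCAAT. A CArG box was found in 1.16% of 35116 promoters in the table over the same 250 bases. The other 4 promoters of these genes held no CArG box. ACTB was the gene without a promoter entry, so the motif was not looked for there. The CArG box therefore cannot be said to set ACTG1 apart from ACTB. The TUBB4B promoter held 3 CCAAT and 1 TATAA, and that of TUBA1C held 1 of each. CCAAT was found in 32.01% of all promoters and TATAA in 18.9%. The promoter of TUBA1B held none of the motifs, and that of TMSB10 held 1 TATAA. The matches describe these letters, and their part in the levels was not tested.

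ACTG1 had the most poly(A) regions of the genes, with 5 weaker ones upstream of the strongest. The strongest gave 1812, 2402, 282 and 337 CPM in libraries 1 to 4, an 8.52-fold spread. The weaker regions together gave 15.4, 20.3, 20.7 and 16.6 CPM, a 1.35-fold spread, so the low gamma-actin level in libraries 3 and 4 was that of the main end. Among the weaker regions, the one 633 bases upstream (79477573 to 79477651) was the best read, with 9.98, 15.2, 8.58 and 7.78 CPM. The region 1998 bases upstream (79478938 to 79478956) had 0, 0, 17 and 12 reads. The counts of 0 allow a share of up to 0.0403% of the gene's reads in library 1 and 0.0732% in library 2 (upper ends of 95% Wilson intervals). The share was 0.983% (95% Wilson interval 0.615% to 1.57%) in library 3 and 0.852% (0.488% to 1.48%) in library 4. The region 79 bases upstream (79477019 to 79477042) had 2, 0, 33 and 15 reads.

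The weaker TUBA1C region gave 7.10, 7.86, 6.13 and 6.53 CPM, a 1.28-fold spread, while the strongest one spread 3.55-fold. TUBA1B had 1 weaker region, 202 bases upstream (49521758 to 49521777), with 0, 0, 26 and 14 reads. The counts of 0 allow up to 0.0110% and 0.0230% of the gene's reads in libraries 1 and 2, against 0.0810% (0.0553% to 0.119%) in library 3 and 0.0651% (0.0388% to 0.109%) in library 4. ACTB had weaker regions 346 and 563 bases upstream with 23 and 17 reads in all, of which library 1 held 11 and 14. TMSB10 had weaker regions 66 and 610 bases upstream with 41 and 125 reads in all.

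**Figure D4:**
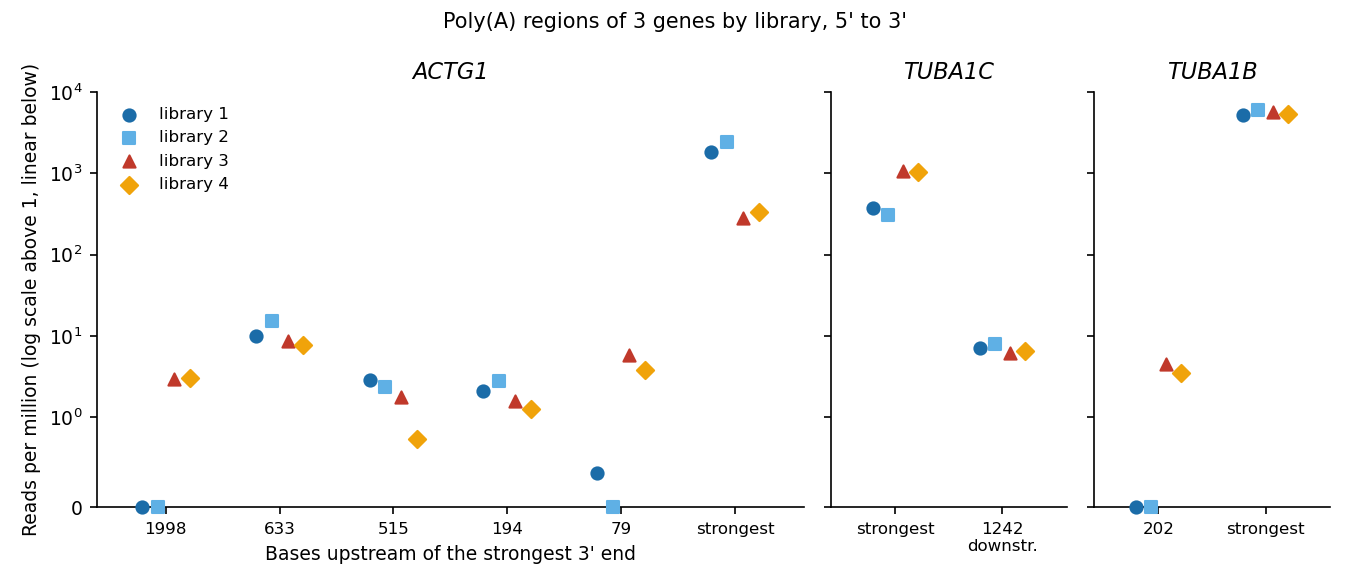
Reads in CPM (log scale above 1, linear below) in each poly(A) region of ACTG1, TUBA1C and TUBA1B by library, ordered 5' to 3', with the distance of each region's 3' end from the strongest one. The strongest ACTG1 region lies at 1812, 2402, 282 and 337 in libraries 1 to 4, while the region 633 bases upstream stays between 7.78 and 15.2.

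Usage was compared by Fisher's exact test, 1 library against another, on reads in the strongest region against the gene's other regions, at equal depth and with Benjamini-Hochberg adjustment over the 5989 loci that had over 1 region and 100 reads or more. Reads are treated as independent molecules, and the test compares libraries, not conditions. Before thinning, the strongest ACTG1 region took 99.2%, 99.2%, 93.2% and 95.3% of the gene's reads in libraries 1 to 4. The adjusted p was 9.5e-19 for library 1 against library 3, 2.2e-11 for library 1 against library 4, 9.4e-20 for library 2 against library 3 and 5.1e-12 for library 2 against library 4 (Fisher's exact test). Equal depth was reached by thinning the counts at random, and these 4 differences passed in 6 of 6 draws.

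The strongest TUBA1C region took 98.1%, 97.5%, 99.4% and 99.4% before thinning, so its share was higher in libraries 3 and 4. In both ACTG1 and TUBA1C the weaker regions together spread little in CPM (1.35- and 1.28-fold). The strongest ones spread 8.52- and 3.55-fold. The ACTG1 sum, however, joined regions that moved in opposite ways. The region 79 bases upstream gave 0.384, 0, 5.78 and 3.76 CPM in libraries 1 to 4. The region 1998 bases upstream gave 0, 0, 2.98 and 3.01 CPM. Those 194, 515 and 633 bases upstream were lower in libraries 3 and 4 than in libraries 1 and 2. What set these shares was not tested. For TUBA1C the adjusted p was 0.00055 for library 2 against library 3 and 0.00016 for library 2 against library 4, and both passed in 6 of 6 draws (Fisher's exact test). For library 1 against libraries 3 and 4 it was 0.0018 and 0.00057, with 4 of 6 draws passing in each case and values up to 0.54 and 0.72. For TUBA1B the adjusted p was 0.020 for library 2 against library 3 (6 of 6 draws) and 0.020 for library 2 against library 4 (4 of 6 draws), and 0.059 and 0.065 for library 1 against libraries 3 and 4 (Fisher's exact test; 5 and 1 of 6 draws). The TUBA1B share differed by under 0.1 percentage points in each case.

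Of the 5 genes with several regions, 2 thus passed for library 1 against library 3, where 12.9% of all loci did, and 2 for library 1 against library 4 (11.3% of loci). It was 3 for library 2 against library 3 (18.9%) and 3 for library 2 against library 4 (16.2%). These counts are of 1 thinning draw. Other draws gave 2 or 3 genes for library 1 against library 3 and for library 2 against library 4. For library 1 against library 4 they gave 1 to 3. By the same test 0 passed for library 1 against library 2 (0.401% of loci) and 0 for library 3 against library 4 (0.0334%), and at an unadjusted p under 0.05 it was also 0 in both. ACTB and TMSB10 passed in no comparison at equal depth. With counts not thinned, ACTB had an adjusted p of 0.015 for library 1 against library 3 and 0.026 for library 1 against library 4 (Fisher's exact test).

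Across all loci, the one closest to each gene in level was found by the Euclidean distance over the 4 values of log2(CPM + 1). For TUBA1C it was on the minus strand of chromosome 8 (101712108 to 101716357, distance 0.10), with 396, 313, 1030 and 1061 CPM. For ACTB it was on the minus strand of chromosome 10 (75134852 to 75135571, distance 0.10), and for TUBA1B on the minus strand of chromosome 8 (146015128 to 146015800, distance 0.32). TMSB10 was closest to a locus on the minus strand of chromosome 9 (19371381 to 19379499, distance 0.37). The closest locus to TUBB4B lay on chromosome 19, plus strand (49995099 to 49995591, distance 0.53), with 65.8, 40.2, 619 and 508 CPM. The closest to ACTG1 was on the minus strand of chromosome 1 (8921048 to 8921107, distance 0.78), with 1821, 2384, 463 and 496 CPM. Both were chosen by these same 4 values, so their sharing the division of the libraries is not a separate result. The ACTG1 locus was lower in libraries 3 and 4 than its closest match.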

How the data were processed

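The authors deposited raw read counts at poly(A) regions in 4 libraries, per the file headers. Bowtie2 2.2.5 and hg19 were used, per the submitters' processing notes. The sources used here do not give how regions were made, how reads with several matches were treated and whether the 6 degenerate primer bases served to remove duplicates. Per the labels' protocols, fragments of 50 to 100 nt were primed with anchored oligo(dT), which can also prime on internal A-rich stretches. The design text calls the libraries biological replicates.

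The 6 genes, windows and gene lists were chosen with earlier results of these data known. All regions of a window were described, and for each gene the 1 other locus nearest in level was named. Library totals were 2163977 to 5713530 reads. Counts were scaled to CPM. Fisher's test was run in SciPy 1.17.1 on counts thinned to the smallest total. A locus joins regions within 5 kb, and a fold of 1.5 was used for levels. Intervals and limits from 0 counts cover counting error only, since duplicates may be present. Alternatives used edgeR 4.0.16 (TMM) and DESeq2 1.42.0 size factors, other joining distances (1, 2 and 10 kb), minimum reads and regions, leaving out each library, and, chosen after seeing the data, further thinning draws and merging regions within 100 bases. Lists of other cytoskeletal genes and epithelial markers were not used here, for want of an hg19 annotation.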

Additional observations from a re-analysis of the deposited data

Results flagged for a closer look

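Among 16 values examined for a single library apart from the rest, 1 was found. The share of ACTB reads in its strongest region was 98.4% in library 1, against 99.4%, 99.5% and 99.6% in libraries 2 to 4, and the gap was 0.895 of the whole range, above the 95% critical value of Dixon's test for 4 samples. Chance flags about 1 in 20 such values.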

How the results depend on the processing

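The mean level of each gene stayed within 1 SD under TMM factors, DESeq2 size factors, totals of regions wider than 5 bases and the strongest region alone, but that SD includes the division of the libraries. With a library left out, the mean CPM was 828 to 1534 for ACTG1, 576 to 833 for TUBA1C and 189 to 333 for TUBB4B. The mean log2 ratio of ACTG1 over TUBA1C then ran from -0.37 to 1.23, and ACTB and TUBB4B changed places by mean CPM without library 1 and without library 2. No paired analysis was possible because the series has a single group.

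A minimum of 5% of a window's reads left 1 region per gene, so the strongest share became 100% for TUBA1B, TUBA1C, ACTB, ACTG1 and TMSB10. With regions under 100 bases away counted with the strongest, the TMSB10 share was 99.8397%, and ACTG1 kept 99.2%, 99.2%, 95.1% and 96.4% in libraries 1 to 4.

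In the Fisher tests, counts not thinned gave 58 loci for library 1 against 2, 1671 for 1 against 3, 1295 for 1 against 4 and 13 for 3 against 4, and 4 genes in the second and the third of these. Joined within 1 kb, 1 gene passed for library 1 against 3 and 1 for library 1 against 4, since TUBA1C then had a single region in its locus. For library 1 against 4, 1 gene passed in 2 of the added thinning draws and 3 genes in another. Between libraries 3 and 4 the number of loci was 1 (joined within 1 kb and 2 draws) to 4 (within 10 kb and 1 draw).

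For levels, a fold of 2 gave 2, 147, 132, 233, 217 and 0 loci for libraries 1 over 2, 1 over 3, 1 over 4, 2 over 3, 2 over 4 and 3 over 4, and 0 genes for 1 over 2. Loci with at least 10000 reads numbered 1, 36, 34, 59, 50 and 1 past 1.5-fold, and loci with at least 100 reads 812, 2352, 2300, 3419, 3326 and 547. At the minimum of 10000 reads TUBB4B and ACTB were no longer among the genes compared, so the 0 genes there for 1 over 2 say nothing of TUBB4B. Under TMM and DESeq2 scaling, TMSB10 was no longer past 1.5-fold in libraries 2 over 3 and 2 over 4. Depth limits the weaker regions most, since they held 17 to 165 reads in all.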
